A study of Mus musculus with 24 samples.

Results

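The genes described here are 10 genes of microglia and of the complement system, read in brain RNA of 2N mice and of Ts1Cje mice. The genes are C1qa, C1qb, C1qc, Cx3cr1, Csf1r, Aif1, Tyrobp, Fcer1g, Cd68 and Trem2. A probe set, the group of array probes that reports a transcript, was taken where its platform gene symbol was 1 of these genes alone, and every probe set was read apart. On the Affymetrix MGU74A array, called array A below, 13 of 12422 probe sets met this rule and stood for 9 of the 10 genes. On MGU74B, called array B, 0 of 12411 did. Trem2 was not analysed here, since no probe set used was assigned to it.

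Ts1Cje is a segmental trisomy of distal mouse chromosome 16, used to model Down syndrome, and 2N mice are disomic for that segment. Each genotype had 6 samples on each array, which gives 24 arrays of total RNA. Brain is the only tissue label, with no region, age, sex, strain background or treatment. Whether a replicate number stands for 1 animal is also not stated, so p-values measure the sample-to-sample spread alone, and part of it may be technical. In the reference annotation (GRCm38.p6) none of the 10 genes lies on chromosome 16 or on chromosome 12, which carries the translocated segment.

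Microglia are the resident macrophages of the brain. They depend on the receptor encoded by Csf1r for survival and read the neuronal chemokine fractalkine through the receptor encoded by Cx3cr1. They are the main source of C1q in the brain, the protein that opens the classical complement pathway and that tags synapses for removal during development. C1q is built from an A, a B and a C chain, encoded by C1qa, C1qb and C1qc. Tyrobp (DAP12) and Fcer1g are small membrane adaptors that carry an immunoreceptor tyrosine-based activation motif (ITAM) and signal for receptors such as Trem2 and the Fc receptors. Cd68 is a lysosomal glycoprotein of phagocytes, and Aif1 encodes Iba1, the calcium-binding protein widely used to stain microglia.

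None of these genes passed the test between genotypes. Of the 13 probe sets, 9 were bright enough to be tested, and they stood for 7 genes, C1qa, C1qb, C1qc, Cx3cr1, Csf1r, Tyrobp and Cd68. Of these 9, 0 had an adjusted p under 0.05 (limma, Benjamini-Hochberg over the table), where 0.0966% of all 9316 tested probe sets of array A did. At an unadjusted p under 0.05 the count was also 0, against 3.63% of all tested probe sets. In 0 of the 9 did the genotypes separate without overlap, against 0.301% of all. The log2 difference, Ts1Cje minus 2N, was below 0 for 5 of the 9 and above 0 for 4, where 51.1% of all tested probe sets lay below 0. Its median was -0.03, and over all tested probe sets it was -0.00424. In whole tissue, fewer cells of a type and less RNA per cell cannot be told apart.

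**Figure D1:**
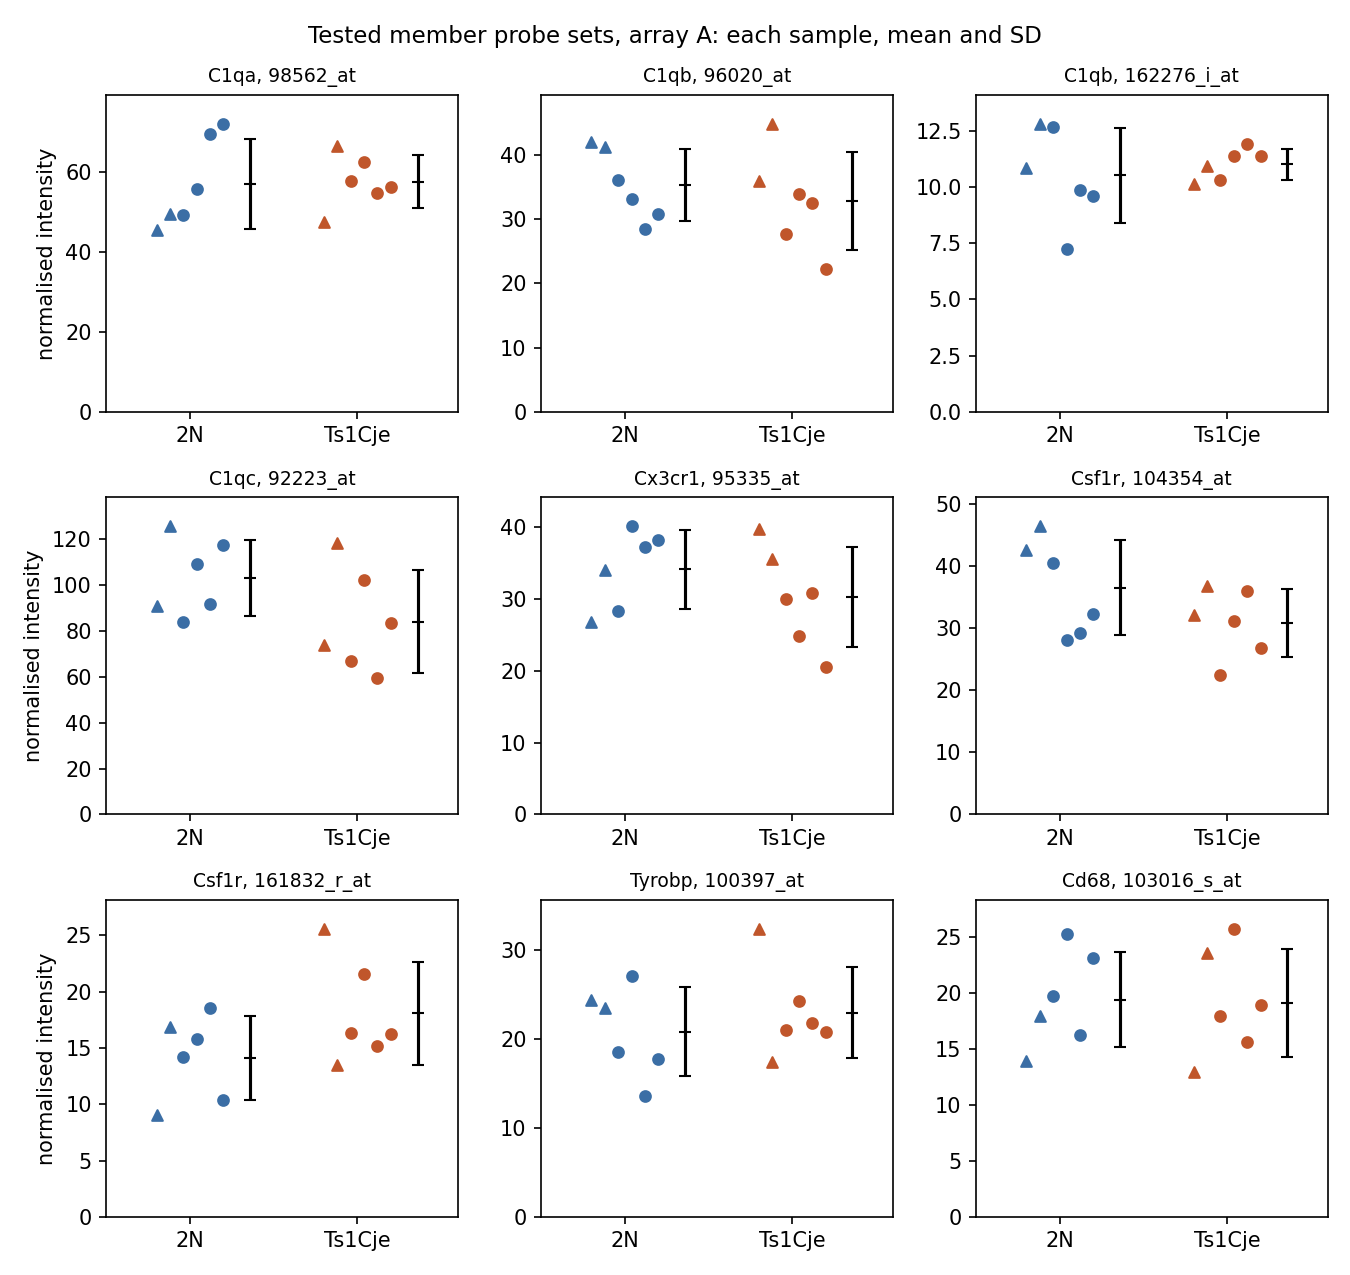
Normalised intensity (vertical axis, linear) of the 9 tested probe sets in each of the 12 samples of array A, by genotype; triangles are replicates 1 and 2, circles are replicates 3 to 6, and bars are the mean and SD of 6 samples. The genotypes overlap in all 9 panels, and C1qc has 4 Ts1Cje samples below the lowest 2N sample.

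The C1q chain genes are neighbours in the genome, in the order C1qb, C1qc and C1qa, with no other annotated gene between them. The windows from 250 bases before to 50 bases after the start of C1qb and C1qc are shown here because these neighbours were compared directly below, and because both hold the short core of the site bound by PU.1, a transcription factor of macrophages and microglia. They are from RefSeq (GRCm38.p6), at chr4:136886151-136886450 and chr4:136892865-136893164, both on the minus strand and written 5′ to 3′. Capitals mark GAGGAA or its reverse complement TTCCTC.

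C1qb: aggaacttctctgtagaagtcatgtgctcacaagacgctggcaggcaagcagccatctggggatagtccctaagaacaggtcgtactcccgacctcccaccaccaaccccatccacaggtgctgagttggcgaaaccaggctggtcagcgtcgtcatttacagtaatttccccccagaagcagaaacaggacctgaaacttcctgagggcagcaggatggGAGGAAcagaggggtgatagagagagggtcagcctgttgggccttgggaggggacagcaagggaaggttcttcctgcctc
C1qc: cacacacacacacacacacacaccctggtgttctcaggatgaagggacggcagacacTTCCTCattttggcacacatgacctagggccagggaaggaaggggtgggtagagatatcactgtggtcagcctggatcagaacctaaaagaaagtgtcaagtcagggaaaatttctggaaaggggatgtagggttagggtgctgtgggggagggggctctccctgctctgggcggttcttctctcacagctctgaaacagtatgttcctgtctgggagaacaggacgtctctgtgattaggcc

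Of 7 members whose window was searched on both strands, 5 held the motif (C1qb, C1qc, Cd68, Aif1 and Trem2), and Cx3cr1 and Fcer1g did not. C1qa and Tyrobp had no window in the sequences used, and Csf1r was left out of the search. The motif is short, and 28.3% of all 32851 windows held it, so a match is a description of the letters.

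C1qc was the member with the smallest p. Its probe set was bright, at the 84.3rd percentile of array A. The 6 2N samples ran from 83.8 to 126 with a median of 100.4, and the 6 Ts1Cje samples from 59.5 to 118 with a median of 78.5. Of the Ts1Cje samples 4 lay below the lowest 2N sample, while replicates 2 and 4 lay within the 2N range. The means were 103 ± 16.7 and 84.0 ± 22.4 (SD, n = 6), a log2 difference of -0.32 (SE 0.156, 95% interval -0.65 to 0.01) or 0.801-fold, with a limma adjusted p of 0.99. The unadjusted limma p was 0.0552, which ranked 378 of 9316 from the smallest. The two-sided exact permutation p of this probe set was 0.106.

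C1qa, which encodes the A chain, had a probe set at the 75.2nd percentile. Its 2N samples ran from 45.5 to 72.0 with a median of 52.5, and its Ts1Cje samples from 47.5 to 66.5 with a median of 57.0. The Ts1Cje samples all lay inside the range of the 2N samples. The log2 difference was 0.03 (SE 0.134, 95% interval -0.25 to 0.31, limma adjusted p = 0.998). This was the narrowest interval among the 9, and it runs from 0.840-fold to 1.24-fold.

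C1qb was read by a probe set at the 64.6th percentile and by a dimmer one at the 40.1st. In the brighter one the 2N samples ran from 28.4 to 42.1 and the Ts1Cje samples from 22.2 to 44.8, with medians of 34.6 and 33.2. Both the highest and the lowest of the 12 samples were Ts1Cje, so the ranges overlap throughout. The log2 difference was -0.12 (SE 0.169, limma adjusted p = 0.99). In the dimmer one the medians were 10.3 and 11.1, with ranges of 7.24 to 12.8 and 10.1 to 11.9, and the difference was 0.09 (SE 0.234, adjusted p = 0.998). The probe sets of C1qb thus lay on opposite sides of 0, with both intervals across it.

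Whether the C1q chains moved apart from one another was tested on the difference of their log2 values within each array. C1qc was lower relative to C1qa in Ts1Cje by a log2 difference of -0.35 (two-sided exact permutation p = 0.0801, 0.20 adjusted over 5 such pairs). C1qc against the brighter C1qb probe set gave -0.20 (exact permutation p = 0.338, adjusted 0.422), and C1qa against it gave 0.15 (exact permutation p = 0.528). None of these passed, and the value of C1qc alone is not shown to differ from those of the other chains.

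Csf1r, the receptor gene on which microglia depend, had a probe set at the 64.4th percentile whose 2N samples ran from 28.1 to 46.4 with a median of 36.3, and whose Ts1Cje samples ran from 22.4 to 36.7 with a median of 31.6. In that probe set 2 Ts1Cje samples lay below all 2N samples and 3 2N samples lay above all Ts1Cje samples. The log2 difference was -0.23 (SE 0.168, 95% interval -0.59 to 0.12, limma adjusted p = 0.99). Its dimmer probe set, at the 48.3rd percentile, lay on the other side of 0. There the 2N samples ran from 9.08 to 18.6 with a median of 15.0, and the Ts1Cje samples from 13.5 to 25.6 with a median of 16.3. The difference was 0.36 (SE 0.235, 95% interval -0.13 to 0.86, adjusted p = 0.99), the highest among the members. The gap between the probe sets of Csf1r was -0.60, with a two-sided exact permutation p of 0.0736 (0.20 adjusted over the 5 pairs), so these 12 samples give Csf1r no settled direction.

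Cx3cr1, the fractalkine receptor gene, had a probe set at the 63.3rd percentile. The 2N samples ran from 26.8 to 40.1 with a median of 35.7, and the Ts1Cje samples from 20.6 to 39.7 with a median of 30.4. The lowest 2 Ts1Cje samples lay below every 2N sample, and the other 4 lay within the 2N range. The log2 difference was -0.19 (SE 0.173, 95% interval -0.56 to 0.17, limma adjusted p = 0.99). It was 0.32 among replicates 1 and 2 and -0.45 among replicates 3 to 6 (adjusted p = 0.98 and 0.93), and the difference between these sets was not tested.

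Tyrobp, the adaptor of Trem2, was at the 54.9th percentile. The 2N samples ran from 13.6 to 27.0 with a median of 21.0, and the Ts1Cje samples from 17.4 to 32.3 with a median of 21.4. The highest of the 12 samples was Ts1Cje replicate 1, and the other 5 Ts1Cje samples lay within the 2N range. The log2 difference was 0.15 (SE 0.202, 95% interval -0.27 to 0.58, limma adjusted p = 0.99). Cd68, the lysosomal gene, was at the 52.2nd percentile in its brighter probe set. Its 2N samples had a median of 18.9 and its Ts1Cje samples one of 18.4, and the means were 19.4 ± 4.26 and 19.1 ± 4.81 (SD, n = 6). Their difference was -0.03 (SE 0.212, 95% interval -0.48 to 0.42, adjusted p = 0.998).

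**Figure D2:**
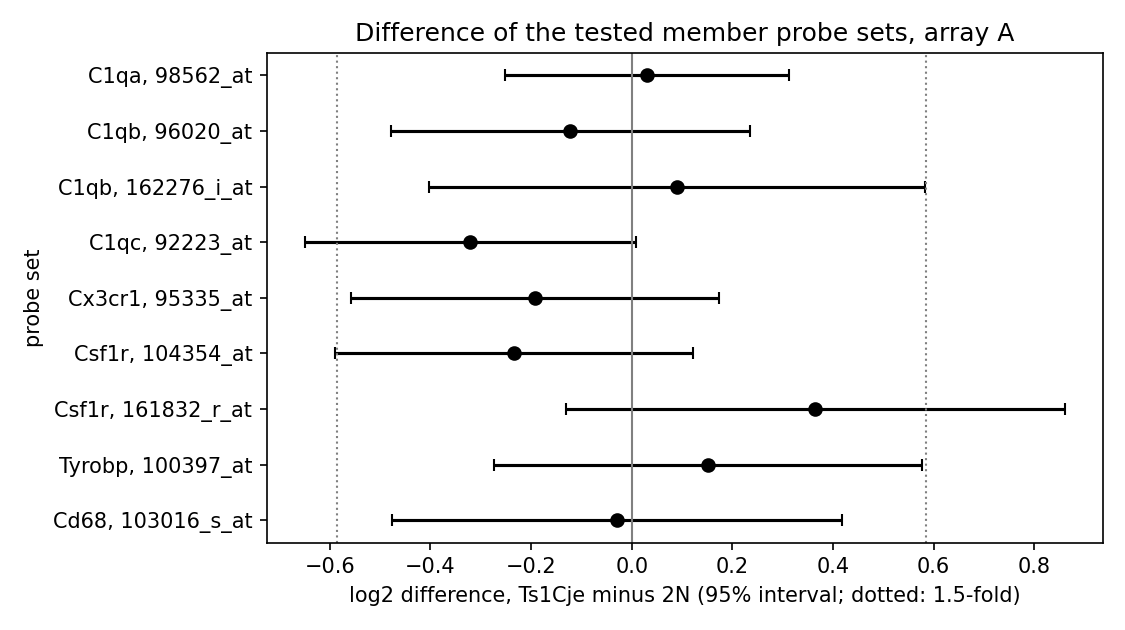
Log2 difference, Ts1Cje minus 2N (horizontal axis), of the 9 tested probe sets on array A, with 95% intervals of the limma fit as bars; dotted lines mark 1.5-fold in either direction. All 9 intervals cross 0, and 6 of 9 lie inside 1.5-fold.

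The intervals give the sizes of change that these samples leave possible. All 9 intervals lay within 2-fold in either direction, and 6 of 9 lay within 1.5-fold. Over all 9316 tested probe sets of array A these shares were 75.6% and 55.2%. The intervals of C1qc and the brighter Csf1r probe set reached past 1.5-fold lower, at 0.637-fold and 0.665-fold, and that of the dimmer Csf1r probe set past 1.5-fold higher, at 1.82-fold. An adjusted p above the threshold does not show that these genes were equal in the genotypes.

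The remaining 4 probe sets, those of Aif1 and Fcer1g and the dimmer one of Cd68, fell below the brightness filter and were not tested. Aif1 was at the 20.6th percentile. Its samples ran from 1.76 to 10.8 in 2N with a median of 3.65, and from 1.19 to 9.45 in Ts1Cje with a median of 1.98. The 3 highest samples were 2N replicates 1 and 2 and Ts1Cje replicate 2, and the genotypes overlapped. Its log2 difference of -0.75 had a two-sided exact permutation p of 0.199, and without the filter a limma adjusted p of 0.98.

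The probe sets of Fcer1g, the Fc receptor gamma chain gene, were at the 16.4th and 8.82nd percentiles, with medians of 3.35 against 2.65 and 1.73 against 1.82 in 2N and Ts1Cje. Of their 12 samples, 2 and 3 were at or below the floor of 1.47, so their differences of -0.37 and -0.26 (exact permutation p = 0.476 and 0.511) carry little information. In the dimmer Cd68 probe set 9 of 12 samples were at or below the floor. For Aif1 and Fcer1g the arrays therefore gave no usable comparison.

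**Figure D3:**
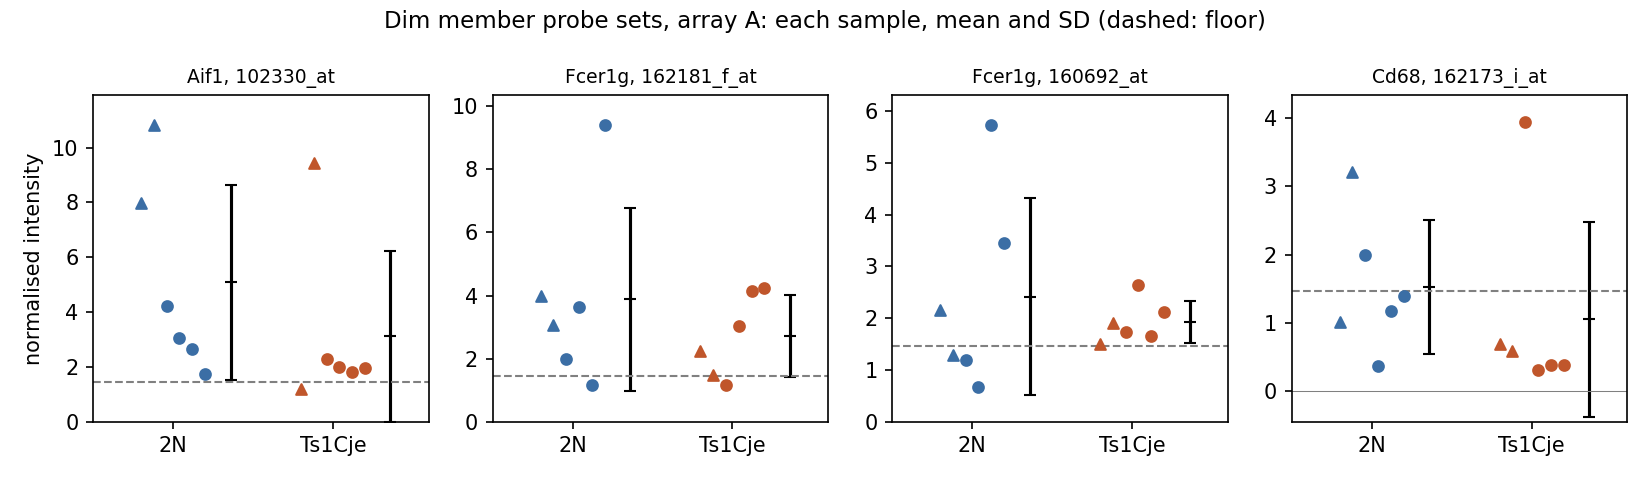
Normalised intensity (vertical axis, linear) of the 4 untested member probe sets in each sample of array A, by genotype; triangles are replicates 1 and 2, circles replicates 3 to 6, bars the mean and SD of 6 samples, and the dashed line the floor of 1.47. Most points lie near the floor, and the genotypes overlap in all 4 panels.

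Some members also varied between replicate numbers, here taken as the sets 1 to 2 and 3 to 6, a split seen only in the data. The median Spearman correlation was 0.943 over the 34 pairs of arrays within a set, most of them among replicates 3 to 6, and 0.932 over the 32 pairs across the sets on array A (0.907 and 0.906 for array B). Over both genotypes the brighter C1qb probe set averaged 41.0 in replicates 1 and 2 and 30.6 in replicates 3 to 6. The brighter Csf1r probe set averaged 39.4 and 30.8, and Aif1 7.36 and 2.47. C1qa ran the other way, at 52.2 and 59.7, as did the brighter Cd68 probe set, at 17.1 and 20.4, and the dim Fcer1g probe sets. These differences between the sets were not tested. With the set as a term in the fit, 0 of the 9 probe sets passed. An unadjusted p under 0.05 was reached by 1 (limma), against 435 of all 9316 tested on array A. Among replicates 3 to 6 alone, 0 passed and 2 reached it, against 475 of the 9316.

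How the members varied together was examined among the 8 samples of replicates 3 to 6, with each genotype's mean removed. Exact here means that all orders of the 8 samples were used, regardless of genotype. Values centred within genotype are not freely exchangeable, so these p are approximate. Of 21 pairs of the 7 tested genes, each by its brightest probe set, C1qc and Cd68 had the highest Pearson correlation (r = 0.85, exact permutation p = 0.0083, adjusted 0.17), with a Spearman rho of 0.81 (exact permutation p = 0.022, adjusted 0.23). The highest Spearman correlation was that of C1qb and Tyrobp (rho = 0.83, exact permutation p = 0.0154, adjusted 0.23), with a Pearson r of 0.43. Without the 2 samples farthest from the median of C1qc, r was 0.67. The C1q genes themselves gave r of 0.48 for C1qa and C1qc, -0.30 for C1qa and C1qb and -0.07 for C1qb and C1qc (exact permutation p = 0.228, 0.466 and 0.857). No pair passed after adjustment over the 21.

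Other genes of microglia and macrophages, from a list of 43, were read by 23 tested probe sets on array A and by 5 more from array B, and 0 passed in either table (limma). An unadjusted p under 0.05 was reached by 2 on array A, against 3.63% of all tested there, and by 0 on array B, against 4.24%. Their median difference was 0.04 on array A, with 13 above 0 and 10 below, and -0.32 on array B, with all 5 below 0. On array A the brightest was Coro1a, an actin regulator of blood cells, at -0.05 (SE 0.116). On array B they were Olfml3 at -0.04 (SE 0.204) and the purinergic receptor gene P2ry13 at -0.04 (SE 0.160). The integrin gene Itgam, a classical macrophage marker, fell below the brightness filter at 1.91 over the 12 samples, as did Siglech on array B at 2.15. Itgb2, the beta chain of complement receptor 3, chosen here after its values were seen, was dim, at 4.01 ± 3.59 in 2N and 7.96 ± 2.28 in Ts1Cje. Its 2N mean lay under the brightness filter, which it met through Ts1Cje, and the genotypes overlapped. Itgb2 and Msr1, also chosen after its values were seen, were the 2 on array A with an unadjusted p under 0.05 (limma). The tested Msr1 probe set averaged 4.78 ± 2.57 in 2N and 7.96 ± 1.33 in Ts1Cje. It met the filter in the same way and its genotypes overlapped, so that count of 2 rests on probe sets let in by Ts1Cje.

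Other complement genes gave 20 tested probe sets on array A and 5 more from array B, of which 0 passed in either table (limma), where 0.0645% of all tested on array B did. Their median was -0.01 on array A, with 10 above 0 and 10 below, and an unadjusted p under 0.05 was reached by 0. On array B it was 0.20, and 2 of 5 reached it, against 4.24% of all tested there. Clu, which encodes the complement inhibitor clusterin, averaged 107 ± 13.2 for 2N and 107 ± 12.5 for Ts1Cje in its brighter probe set, a difference of 0.01 (SE 0.103). Cd93 differed by 0.01 on array A but by -0.34 on array B, and the terminal pathway gene C6 by 0.20 in its brighter probe set on array B. Those 2, named after their values were seen, lay on opposite sides of 0: Masp1, the lectin pathway protease gene, at -1.12 and the dimmer C6 probe set at 0.94 (limma adjusted p = 0.996 for both).

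Of the ligands and partners of microglial receptors, none passed (limma, 0 of 9 tested on array A and 0 of 2 for array B). At an unadjusted p under 0.05 (limma) the counts were 1 and 0, against 3.63% and 4.24% of all tested on arrays A and B. The fractalkine gene Cx3cl1 averaged 147 ± 14.0 for 2N and 167 ± 12.3 for Ts1Cje in its bright probe set (SD, n = 6), a difference of 0.19 (SE 0.0836, limma adjusted p = 0.99). Its range was 129 to 166 in 2N and 144 to 179 in Ts1Cje, so the genotypes overlapped, and its dim probe set on array B differed by -0.19 (SE 0.209). Apoe, a lipid carrier that binds Trem2, was at 969 ± 105 and 969 ± 123, and Il34, a ligand of the Csf1r receptor, differed by -0.10 on array B.

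Receptors that pair with Tyrobp or Fcer1g were read by 2 tested probe sets on array A, the Fc receptor genes Fcgr3 at 0.51 (SE 0.368) and Fcgr1 at -0.30 (SE 0.229), and neither passed. Of the kinases and adaptors downstream of the ITAM, none passed (limma, 0 of 9 tested on array A and 0 of 1 for array B). An unadjusted p under 0.05 (limma) was reached by 1 and 0, against 3.63% and 4.24% of all tested on these arrays. The kinase gene Fyn differed by 0.00196 (SE 0.0972) and the adaptor gene Grb2 by -0.04 (SE 0.0803), both of which neurons also use, and Pik3cg on array B by 0.38 (SE 0.596).

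**Figure D4:**
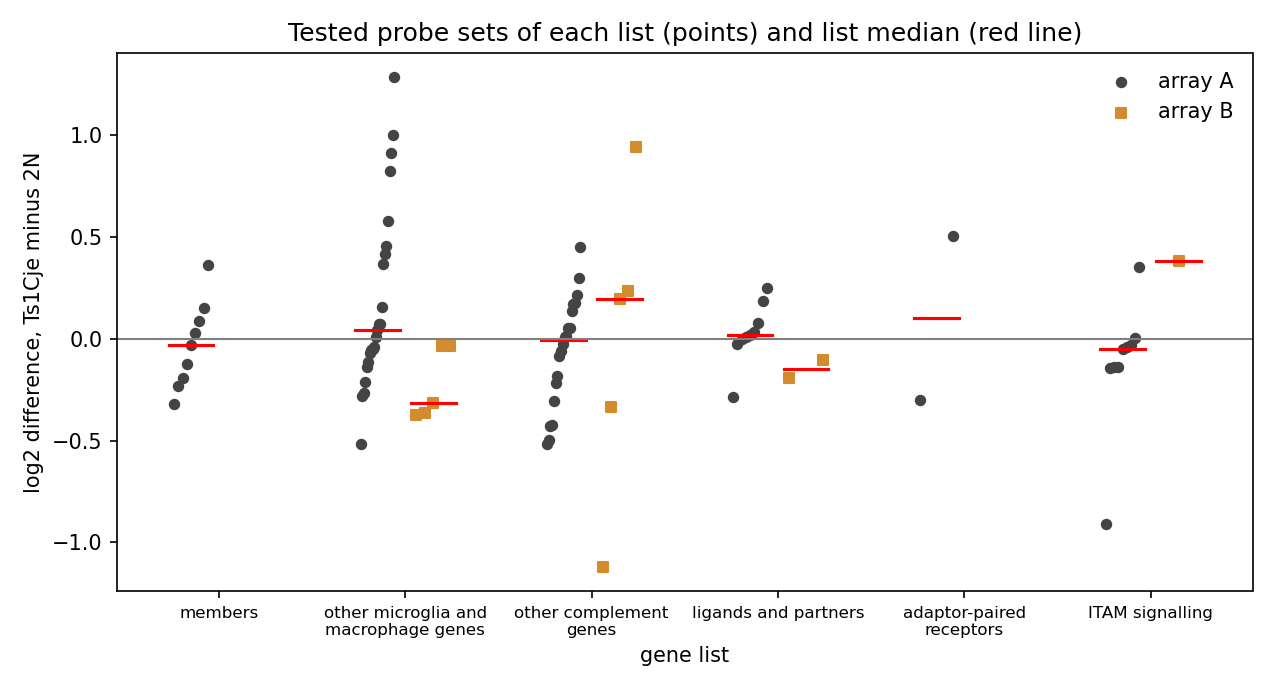
Log2 difference, Ts1Cje minus 2N (vertical axis), of each tested probe set of the members and of 5 related gene lists (horizontal axis), on array A (circles) and array B (squares); red lines are list medians. List medians lie between -0.05 and 0.10 on array A, and no point passed the test.

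Markers of other cells that brain tissue could hold are given for the labels. Neuronal markers were bright on array A, with the brightest Tubb3 probe set at 2673 ± 164 for 2N and 2804 ± 172 for Ts1Cje and that of Stmn2 at 1839 ± 181 and 1894 ± 129. Of their 8 tested probe sets 0 passed (limma, 0 at an unadjusted p under 0.05), with a median of 0.06. On array B the brightest neuronal markers were Map2 at -0.03 and Syt1 at -0.10. Border macrophage markers were dim, and of their 3 tested probe sets on array A 0 passed, with all 3 above 0. An unadjusted p under 0.05 (limma) was reached by 1, that of Pf4, against 3.63% of all tested there. Over all 4 of their probe sets, summed intensity ran from 12.7 to 24.4 in 2N and from 22.6 to 32.2 in Ts1Cje. That sum takes in an untested probe set, and Pf4, which met the brightness filter through Ts1Cje. The part of these markers in the members' values was not tested. The brightest were Mrc1, at 8.53 over the 12 samples, and Lyve1, at 6.12, with differences of 0.14 and 0.36, and Lyve1 on array B at -0.59. Markers of granulocytes, lymphocytes and mast cells were dim as well, with 7 of 17 probe sets tested on array A and 0 passing (limma). At an unadjusted p under 0.05 (limma) there was 1, against 3.63% of all tested there. The brightest, Ms4a1 and Camp, were at -0.29 and 0.51. Summed intensity over all 17 ran from 96.7 to 113 in 2N and from 103 to 120.0 in Ts1Cje. Astrocyte, oligodendrocyte, endothelial and red blood cell markers gave 5, 4, 5 and 3 tested probe sets on array A, with medians of -0.10, -0.04, -0.04 and -0.17 and 0 passing (limma, 0 at an unadjusted p under 0.05). The brightest astrocyte genes differed by 0.17 (Aldoc) and 0.12 (Aqp4), those of the oligodendrocyte lineage by -0.01 (Pdgfra) and -0.06 (Mbp), and those of endothelium by 0.05 (Cldn5) and 0.42 (Pecam1). Of the tested astrocyte probe sets 2 lay above 0 and 3 below. For the oligodendrocyte lineage these counts were 1 and 3, and for endothelium 2 and 3. The lowest differences were -0.55, -0.69 and -0.58, and the highest 0.17, 0.32 and 0.42. The haemoglobin genes Hba-a1 and Hbb-b2 differed by -0.15 and -0.17. On array B, Aqp4 and Slc1a3 differed by -0.10 and 0.03, and the endothelial gene Flt1 by -1.07 (SE 0.383, limma adjusted p = 0.996). That probe set was dim, from 5.84 to 15.8 in 2N and from 2.23 to 10.7 in Ts1Cje, and the genotypes overlapped. It reached an unadjusted p under 0.05 (limma), against 4.24% of all tested on array B.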

How the data were processed

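The deposited tables, 1 for each array, hold an intensity per probe set, and the sources used here do not say how the authors summarised or scaled it. Because 2% trimmed means differed between arrays, by up to 2.10-fold (array A) and 1.86-fold (array B), each table was quantile normalised. Each table's 66 control probe sets were left out, the 10th percentile (1.47 and 1.13) served as a floor, and values went to log2. The 9316 and 9308 probe sets whose mean reached the 25th percentile (5.11 and 3.90) were tested.

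Genotypes were compared with limma 3.58.1 (R 4.3.3; lmFit and eBayes with trend = TRUE, no covariate), and passing means a Benjamini-Hochberg adjusted p under 0.05 over all tested probe sets of the table. The script was first tested on simulated data drawn with each probe set's own spread. It recovered 44% of 1.5-fold and 59% of 2-fold changes on array A, with 6 false calls. On array B it recovered 29% and 56%, with 4 false calls. Changes of these sizes would thus often be missed. Intensities carry SDs and differences carry standard errors of the fit. The number of arrays limits the precision. Exact permutation tests used all 924 splits of 12 samples, and correlations all orders of 8 samples (Python 3.11.15).

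Gene symbols came from the platform annotation. The members and gene lists were chosen with earlier results of these data known. Every member probe set is named, as are the 2 brightest tested genes of each related list (1 of them is not reported here), and other names are marked as picked with their values in view or as markers below the filter. Replicate numbers were checked as pairs: same-numbered samples deviated together with correlations of 0.0171 to 0.0767 on array A and 0.0127 to 0.109 for array B, so the numbers were not treated as pairs. Alternatives changed the normalisation, floor, offset, filter, trend, array weights, replicate block and replicate sets, and left out each sample in turn.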

Additional observations from a re-analysis of the deposited data

Results flagged for a closer look

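Of 26 groups of 6 samples, 2 for each of the 13 member probe sets, 2 held a sample far from the other 5, judged by its gap to the nearest sample over the range of the log2 values after the floor. Chance marks about 1 in 20 such groups where values are normally distributed and none is set to a floor. That rate does not hold for dim probe sets with samples at the floor. For Aif1 in Ts1Cje the gap was 0.764 of the range, with replicate 2 at 9.45 and the other 5 samples at 2.27 or below. For the dimmer Cd68 probe set in Ts1Cje the gap was 1 of the range, since replicate 3 was at 3.95 and the other 5 were at or below the floor. Both probe sets were too dim to be tested.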

How the results depend on the processing

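None of the 9 tested member probe sets passed under any limma alternative tried. The lowest adjusted p was 0.85, for C1qc with the replicate number as a block. The median member difference stayed within 0.236 of its value under every alternative, from -0.12 to 0.05 with each sample left out. That margin is the SD over samples of the median member log2 value, pooled within genotype. It is wide beside the difference of -0.03, whose sign changed under some alternatives. At an unadjusted p under 0.05 the member count of 0 became 1 with the set or replicate block, 2 among replicates 3 to 6, and 1 without 2N replicate 1 or 3 or Ts1Cje replicate 2 or 4. Over all 9316 tested probe sets of array A the main count of 338 rose as well. It was 435 and 481 with those blocks, 475 among replicates 3 to 6, and 359, 368, 389 and 420 without those samples. Changes of filter, floor, trend or block left most differences as they were by construction. C1qa turned to -0.0319 without normalisation between arrays and to -0.0765 among replicates 3 to 6, and ran from -0.0293 to 0.103 with each sample left out. Cd68 turned to 0.0132 with trimmed mean scaling and to 0.144 among replicates 1 and 2, and ran from -0.123 to 0.0746 with each sample left out. Among replicates 1 and 2 Tyrobp was at -0.00939, the dimmer C1qb probe set at -0.16 and Cx3cr1 at 0.32, and the C1qb value ran from -0.0127 to 0.152 with each sample left out. C1qc kept its direction under every alternative, between -0.43 and -0.18, as did both Csf1r probe sets where tested (the dimmer one drops out under the 50th percentile filter). So did the brighter C1qb probe set, whose difference of -0.12 had an SE of 0.169, so a constant sign carries little weight. With each sample left out, the brighter C1qb probe set ran from -0.218 (without Ts1Cje replicate 2) to -0.016 (without Ts1Cje replicate 6), Tyrobp from 0.0366 (without 2N replicate 5) to 0.235 (without 2N replicate 4), Cx3cr1 up to -0.0874 (without Ts1Cje replicate 6) and the brighter Csf1r probe set up to -0.146 (without Ts1Cje replicate 3).

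Over all tested probe sets, 9 passed on array A and 6 for array B. On array A it was 0 without normalisation, 2 without the trend and 0 among replicates 1 and 2 (limma, with 155, 377 and 407 at an unadjusted p under 0.05). On array B it was 0, 0 and 0 under the same choices (178, 426 and 426), 2 without a filter and 1 among replicates 3 to 6. With each sample left out the array A count lay between 6 and 11 and the array B count between 1 and 6. The latter was 1 without 2N replicate 5, Ts1Cje replicate 1 or Ts1Cje replicate 2, and 3 without 2N replicate 6. The causes were not tested. With the replicate number as a block the counts were 9 and 6 and no member call changed, though the samples share only a number. Of the 6 replicate numbers, 3 on array A and 2 on array B had their own number as best match. Dim signal limits Aif1 and Fcer1g.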

Other observations

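The tested probe sets whose values followed the mean of the 7 brighter member probe sets most closely over the 12 samples of array A were in none of the gene lists used here. With values centred within each genotype and replicate set, they were Prelid3b (Pearson r = 0.91), Kdm5b (0.90), Rraga (0.90), Pld3 (0.88) and Gm1673 (0.87), the highest of 5648 candidates whose median r was -0.01. Being the highest of so many, these r are a description. Prelid3b differed by -0.11, Kdm5b by 0.02, Rraga by -0.13, Pld3 by 0.00154 and Gm1673 by -0.00692 between genotypes, and none passed (limma adjusted p = 0.99 to 0.998). For 7 other microglia and macrophage probe sets above the median intensity the median r was 0.20.

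Pf4, a chemokine gene of platelets that border macrophages also express, was chosen here after its values were seen. It was dim, averaging 2.83 ± 1.12 for 2N and 7.99 ± 1.98 for Ts1Cje (array A, SD, n = 6). The 2N samples ran from 1.27 to 4.35 and the Ts1Cje samples from 4.52 to 9.93, without overlap. Such separation was seen in 0.301% of all tested probe sets of array A, and Pf4 did not pass (limma). Its 2N mean lay under the brightness filter, which it met through Ts1Cje, and it was picked for this separation, so the values are a description.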
